A study of Mus musculus with 12 samples.

Results

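The 7 genes Cdkn1a, Cdkn1b, Cdkn1c, Cdkn2a, Cdkn2b, Cdkn2c, and Cdkn2d, which encode the cyclin-dependent kinase inhibitors, were examined among the 55291 genes of a raw count matrix. They were taken by name, and all 7 are in the matrix. The RNA came from Lin-cKit+ (LK) bone marrow cells, a fraction of hematopoietic stem and progenitor cells that lacks mature lineage antigens and carries the receptor Kit, purified with beads from C57BL/6 mice aged 12 months. The 12 libraries, 1 per mouse, came from 4 genotypes with 3 mice each. WT mice were wild type. Kdm6bΔ/+ mice had lost 1 allele of Kdm6b, which encodes an H3K27 demethylase, through the Cre transgene Mx1Cre, which acts in hematopoietic cells and other tissues after pI:pC injection. Asxl1Y588XTg mice carried a transgene for the truncated ASXL1 protein, and Asxl1Y588XTg Kdm6bΔ/+ mice carried both alterations. The promoter of the transgene, and whether the WT mice of this experiment carried Mx1Cre or received pI:pC, are not given in the sources used here.

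CDK inhibitors hold back the kinases that drive a cell from G1 into S phase. The Cip/Kip proteins p21 (Cdkn1a), p27 (Cdkn1b), and p57 (Cdkn1c) bind CDK complexes with cyclin E, cyclin A, and other cyclins, whereas the INK4 proteins p15 (Cdkn2b), p16 (Cdkn2a), p18 (Cdkn2c), and p19 (Cdkn2d) bind CDK4 and CDK6 alone and keep them from cyclin D. Cdkn2a also encodes Arf, a protein in another reading frame that holds back MDM2 and so protects p53. In hematopoiesis p57, p27, and p21 are known for their part in the quiescence of hematopoietic stem cells (HSCs), and the Cdkn2a and Cdkn2b locus is a classical target of Polycomb silencing through H3K27 methylation.

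The libraries held 14451522 to 23482563 counts on genes, and 15825 genes were abundant enough to be tested. Kit ranged from 328 to 441 CPM (counts scaled to the same total in each library) and Cd34 from 116 to 156 CPM. The neutrophil granule genes were abundant in all 12 libraries, with S100a9 at 13089 to 19952 CPM and a sum over 8 neutrophil markers of 36420 to 56516 CPM, whereas Cd3e and Cd8a of T cells stayed below 1 CPM. The other T and NK markers reached 3.61 (Cd3g) to 17.3 CPM (Ncr1) in their highest library, except Nkg7 at 169 to 260 CPM. Normalized counts of Kdm6b averaged 2127 ± 252 (SD, n = 3 here and below) in WT, 1499 ± 141 in Kdm6bΔ/+, 2253 ± 59.7 in Asxl1Y588XTg, and 1810 ± 141 in Asxl1Y588XTg Kdm6bΔ/+. Kdm6b was below every WT library in the 3 Kdm6bΔ/+ libraries and below every Asxl1Y588XTg library in the 3 Asxl1Y588XTg Kdm6bΔ/+ libraries, with log2 differences of -0.51 (SE 0.11, adjusted p = 0.279, edgeR) and -0.30 (SE 0.07, adjusted p = 0.0717, edgeR), neither past the threshold. Normalized counts are counts scaled by edgeR's trimmed mean of M values (TMM) to the mean library size. Asxl1 did not pass the test between Asxl1Y588XTg and WT (log2 fold change 0.10, SE 0.09, adjusted p = 0.836, edgeR), and the sources used here do not give whether transgene reads are counted on this gene. Transcripts of Y-linked genes were present in 0 of 3 WT, 2 of 3 Kdm6bΔ/+, 1 of 3 Asxl1Y588XTg, and 3 of 3 Asxl1Y588XTg Kdm6bΔ/+ libraries.

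The 7 inhibitors ranged in mean level from 0.0370 to 48.5 FPKM. Levels of different genes were compared only on this scale, TMM-scaled CPM divided by the kilobases of the gene's merged exons. Cdkn2d was the most abundant, with a mean level of 48.5 FPKM over the 12 libraries (43.8 to 55.7). Cdkn2c followed at 31.1 FPKM (25.6 to 34.4), and Cdkn1b at 17.1 FPKM (14.5 to 18.6). These 3 genes, 2 of INK4 inhibitors and that of p27, made up 48.0%, 30.8%, and 17.0% of the summed level of the family. Cdkn1a stood lower at 3.17 FPKM (2.43 to 4.54), and Cdkn1c at 0.881 FPKM (0.274 to 2.25). Cdkn2a averaged 0.181 FPKM (0 to 1.12) and Cdkn2b 0.0370 FPKM (0 to 0.154). Each gene was above the next in this order in 12 of 12 libraries, except that Cdkn2a was above Cdkn2b in 9. The summed level of the family was 98.6 ± 9.87 FPKM in WT, 102 ± 1.23 in Kdm6bΔ/+, 102 ± 0.829 in Asxl1Y588XTg, and 101 ± 6.00 in Asxl1Y588XTg Kdm6bΔ/+, so that the genotypes overlapped within their spread.

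**Figure D1:**
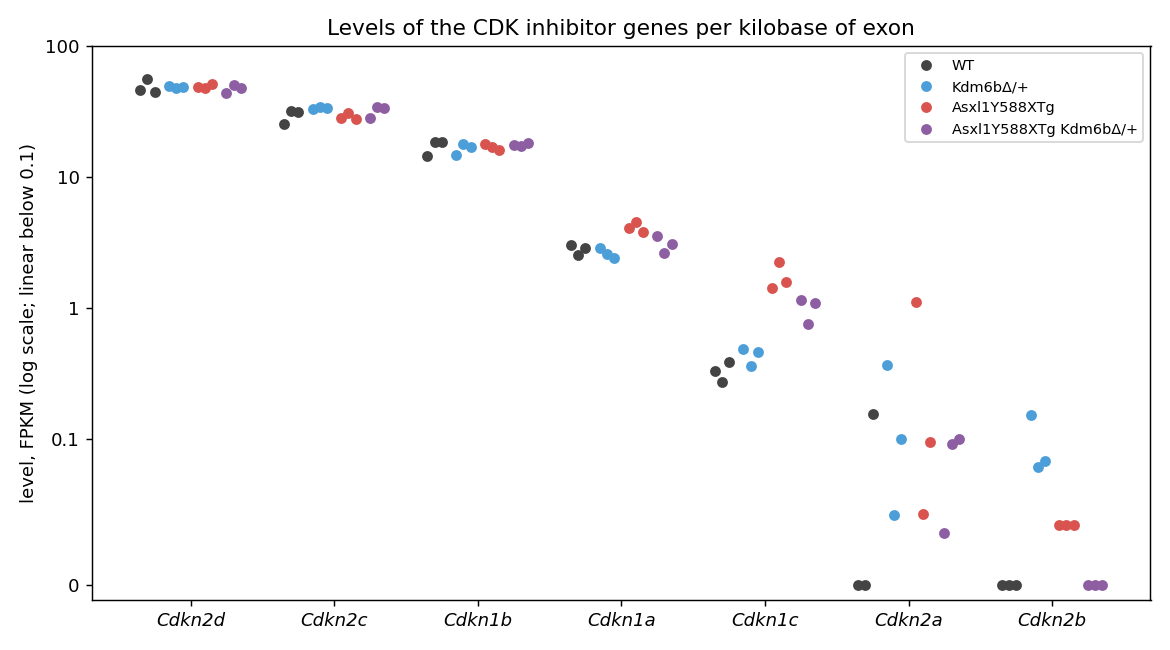
Level of each CDK inhibitor gene in FPKM (y axis, log scale that is linear below 0.1) in the 12 libraries, 1 point per library, coloured by genotype. Cdkn2d, Cdkn2c, and Cdkn1b lie above 10 FPKM in every library, and Cdkn2b is at 0 in the WT and Asxl1Y588XTg Kdm6bΔ/+ libraries.

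The start regions of the genes at both ends of this order, and of Cdkn1a, are printed here because CG-rich windows stood at both ends of the order. They are RefSeq windows of 300 bases (250 before and 50 after the annotated start, GRCm38.p6), written 5′ to 3′ on the gene's strand with every CG dinucleotide in capitals. Of the 7 members, 6 had such windows, 9 in all. The Cdkn2d window (chr9:21291160-21291459, minus strand), the Cdkn1a window of the downstream of its 2 starts (chr17:29093519-29093818, plus strand), the Cdkn2a windows of the Arf start (chr4:89294570-89294869, minus strand) and of the p16 start (chr4:89282143-89282442, minus strand), and the Cdkn2b window (chr4:89310983-89311282, minus strand) read as follows.
Cdkn2d: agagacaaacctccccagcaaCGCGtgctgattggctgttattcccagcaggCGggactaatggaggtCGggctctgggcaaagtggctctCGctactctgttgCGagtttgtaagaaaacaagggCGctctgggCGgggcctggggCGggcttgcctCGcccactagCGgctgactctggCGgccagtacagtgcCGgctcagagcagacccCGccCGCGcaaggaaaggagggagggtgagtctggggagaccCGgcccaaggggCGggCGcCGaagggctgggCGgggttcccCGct
Cdkn1a: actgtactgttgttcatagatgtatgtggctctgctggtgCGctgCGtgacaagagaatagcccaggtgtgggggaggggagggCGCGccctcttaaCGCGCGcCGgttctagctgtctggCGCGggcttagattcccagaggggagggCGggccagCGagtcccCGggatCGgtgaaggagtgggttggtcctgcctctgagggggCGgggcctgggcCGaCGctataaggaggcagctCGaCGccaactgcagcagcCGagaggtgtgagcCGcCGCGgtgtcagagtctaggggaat
Cdkn2a, Arf start: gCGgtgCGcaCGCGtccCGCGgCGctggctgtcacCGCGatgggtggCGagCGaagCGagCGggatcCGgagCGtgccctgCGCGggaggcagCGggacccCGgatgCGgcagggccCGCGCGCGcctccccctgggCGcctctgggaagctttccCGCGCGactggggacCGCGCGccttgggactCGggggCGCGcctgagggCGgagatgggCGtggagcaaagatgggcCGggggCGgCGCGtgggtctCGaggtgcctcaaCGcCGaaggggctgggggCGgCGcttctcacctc
Cdkn2a, p16 start: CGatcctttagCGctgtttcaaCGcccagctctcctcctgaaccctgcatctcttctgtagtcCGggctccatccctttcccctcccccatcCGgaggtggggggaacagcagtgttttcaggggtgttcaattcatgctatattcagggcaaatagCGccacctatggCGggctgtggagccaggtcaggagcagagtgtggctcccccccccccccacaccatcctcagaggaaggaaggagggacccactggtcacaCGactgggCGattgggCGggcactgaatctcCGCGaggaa
Cdkn2b: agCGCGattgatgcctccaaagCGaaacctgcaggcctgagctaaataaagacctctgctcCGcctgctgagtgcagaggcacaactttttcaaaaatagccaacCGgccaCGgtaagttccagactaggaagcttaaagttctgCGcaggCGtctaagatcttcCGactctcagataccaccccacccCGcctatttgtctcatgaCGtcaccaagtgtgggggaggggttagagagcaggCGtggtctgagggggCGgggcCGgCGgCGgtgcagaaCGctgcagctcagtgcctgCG

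The Arf start of Cdkn2a held 45 CG dinucleotides, more than 98.1% of the 32851 windows of all genes, for which the median was 7. The p16 start held 12 (more than 60.4% of windows) and the Cdkn2b start 18 (70.3%). The start of the abundant Cdkn2d held 22 (76.9%) and the downstream start of Cdkn1a 23 (78.5%). The upstream start of Cdkn1a held only 2. The windows of Cdkn1b (30) and of the upstream start of Cdkn2c (33) were also CG-rich, whereas the downstream Cdkn2c window held 8. The letters GGGCGG, searched on both strands and known as the GC box bound by SP1, occurred 5 times at Cdkn2d and 4 times at the upstream start of Cdkn2c. They occurred 3 times at the Arf start, 2 times at the downstream start of Cdkn1a, and 1 time each at the Cdkn1b, p16, and Cdkn2b starts. Of all windows, 35.7% held at least 1. These matches describe the sequence and not binding.

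Of the 7 members, 5 passed the filter on low counts and could be tested in each comparison, and Cdkn2a and Cdkn2b did not. A member was called when its adjusted p (quasi-likelihood F test of edgeR, Benjamini-Hochberg over the 15825 genes) was under 0.05 and its fold change above 1.5. The comparison of Asxl1Y588XTg with WT addresses the effect of the truncated ASXL1 protein, and 1 member, Cdkn1c, was called there, beside 1.61% of all genes tested. At an unadjusted p under 0.05 there were 2 members, Cdkn1c and Cdkn1a, beside 9.35% of all genes. In the other 4 pairwise comparisons and in the interaction edgeR called 0 members, as did DESeq2.

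**Figure D2:**
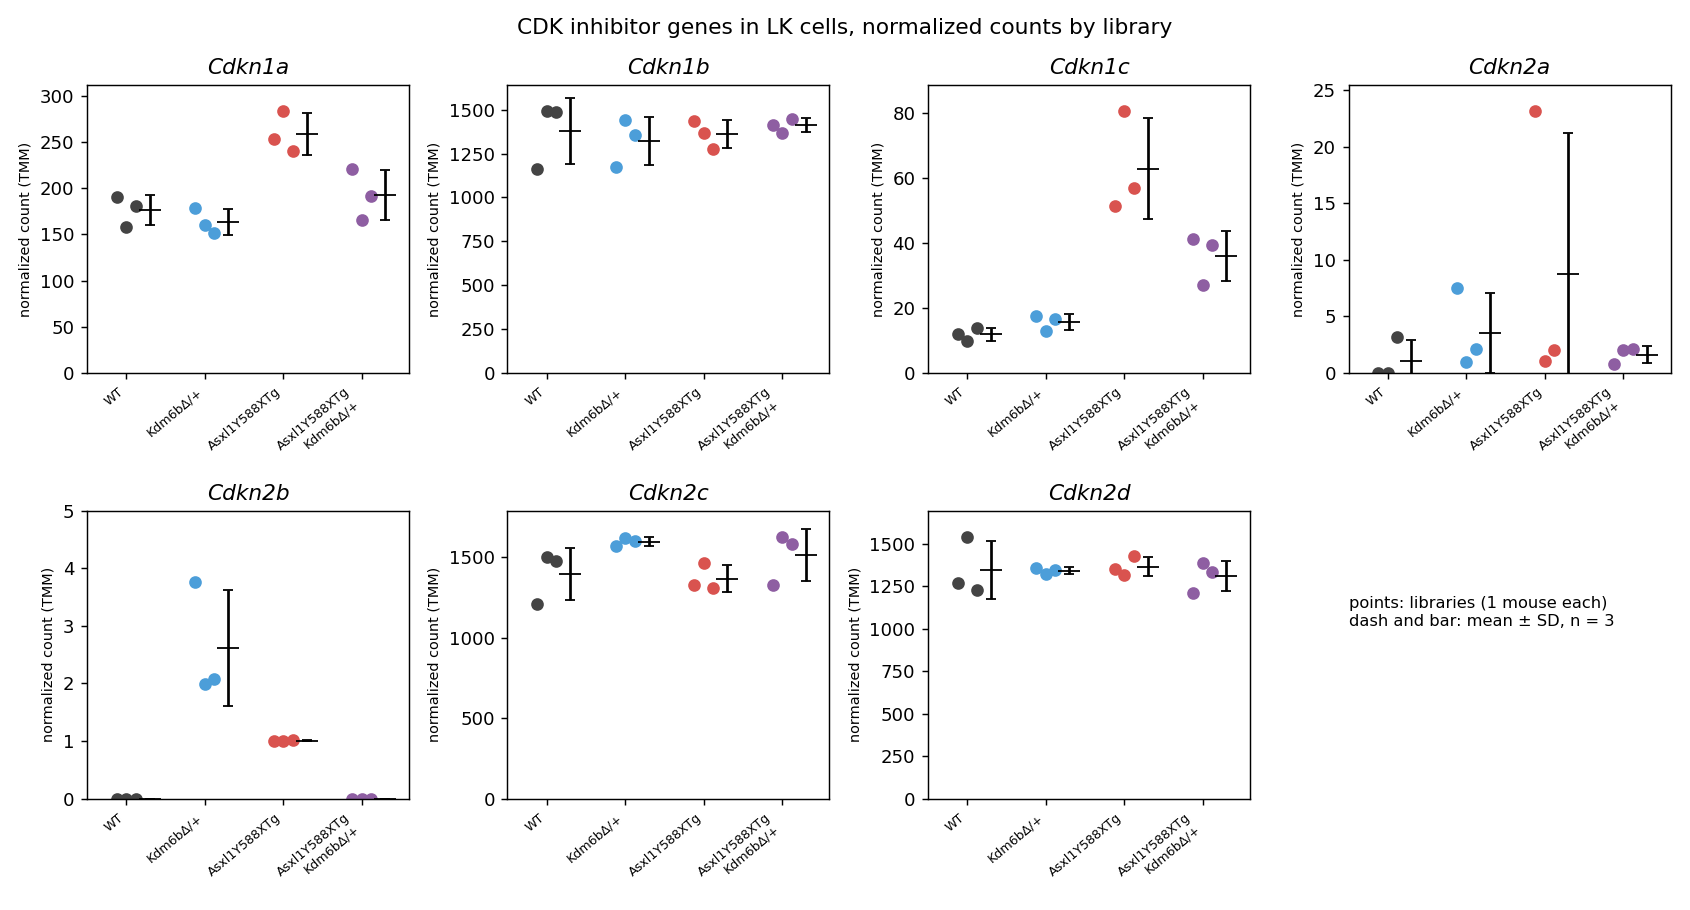
Normalized count (y axis, from 0) of each CDK inhibitor gene in the 12 libraries by genotype. Points are libraries, and the dash with its bar is the mean ± SD of 3. The 3 Asxl1Y588XTg libraries lie above all other libraries for Cdkn1c and Cdkn1a, and the genotypes overlap for Cdkn1b and Cdkn2d.

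Cdkn1c encodes p57, the Cip/Kip inhibitor most closely tied to HSC quiescence (chr7:143458339-143461050, minus strand, mm10). It had 13, 9, and 13 counts in the 3 WT libraries, 14, 13, and 16 in Kdm6bΔ/+, 51, 80, and 56 in Asxl1Y588XTg, and 56, 27, and 38 in Asxl1Y588XTg Kdm6bΔ/+. The antisense gene Gm44732 that overlaps its exons had no counts. The normalized counts averaged 11.9 ± 2.04 in WT, 15.7 ± 2.48 in Kdm6bΔ/+, 62.8 ± 15.5 in Asxl1Y588XTg, and 35.8 ± 7.73 in Asxl1Y588XTg Kdm6bΔ/+. The 3 Asxl1Y588XTg libraries lay highest, followed without overlap by the 3 Asxl1Y588XTg Kdm6bΔ/+ libraries, and the WT and Kdm6bΔ/+ libraries overlapped at the bottom. Cdkn1c rose 5.23-fold in Asxl1Y588XTg against WT (log2 fold change 2.39, SE 0.39, 95% interval 1.53 to 3.25, adjusted p = 0.0146, edgeR). The call held in 3 of 6 fits that each left out 1 library and was lost without WT replicate 3 (adjusted p = 0.0552, edgeR), without Asxl1Y588XTg replicate 2 (0.105), or without Asxl1Y588XTg replicate 3 (0.0543), with log2 fold changes of 2.18 to 2.52.

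With the Kdm6b deletion on the Asxl1Y588XTg background, Cdkn1c was lower in 3 of 3 libraries, with a log2 difference of -0.79 (SE 0.28, 95% interval -1.40 to -0.17) that did not pass the test (adjusted p = 0.201, edgeR). Groups that did not overlap in the lower direction were found for 14.1% of all genes tested in this comparison, in which 1.74% were called. Against WT, Cdkn1c in Asxl1Y588XTg Kdm6bΔ/+ was higher in 3 of 3 libraries by 1.60 on the log2 scale (SE 0.42, 95% interval 0.66 to 2.54, unadjusted p = 0.00345, adjusted p = 0.341, edgeR), where 0.215% of genes were called and 6.68% lay apart in the higher direction. A term for Y-linked transcripts was added to 1 fit of the 4 genotypes. Such transcripts were present in 3 of 3 Asxl1Y588XTg Kdm6bΔ/+ and 0 of 3 WT libraries, so these 2 genotypes alone cannot separate the term from genotype. With the term the Cdkn1c difference was 1.08 (adjusted p = 0.980, edgeR). In the fit of 4 genotypes without it, the difference was 1.59 (adjusted p = 0.141, edgeR). Against Kdm6bΔ/+, it was higher in 3 of 3 libraries by 1.20 (SE 0.34, adjusted p = 0.230, edgeR), where 0.0948% were called and 9.32% lay apart in the higher direction. Between Kdm6bΔ/+ and WT the difference was 0.40 (SE 0.59, 95% interval -0.90 to 1.69), and 0.0948% of genes were called. The interaction, the effect of the deletion with the transgene minus that without it, was -1.20 (SE 0.49, 95% interval -2.24 to -0.15, unadjusted p = 0.0272, adjusted p = 0.675, edgeR), where 0.0126% of genes were called. These comparisons share libraries with each other.

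**Figure D3:**
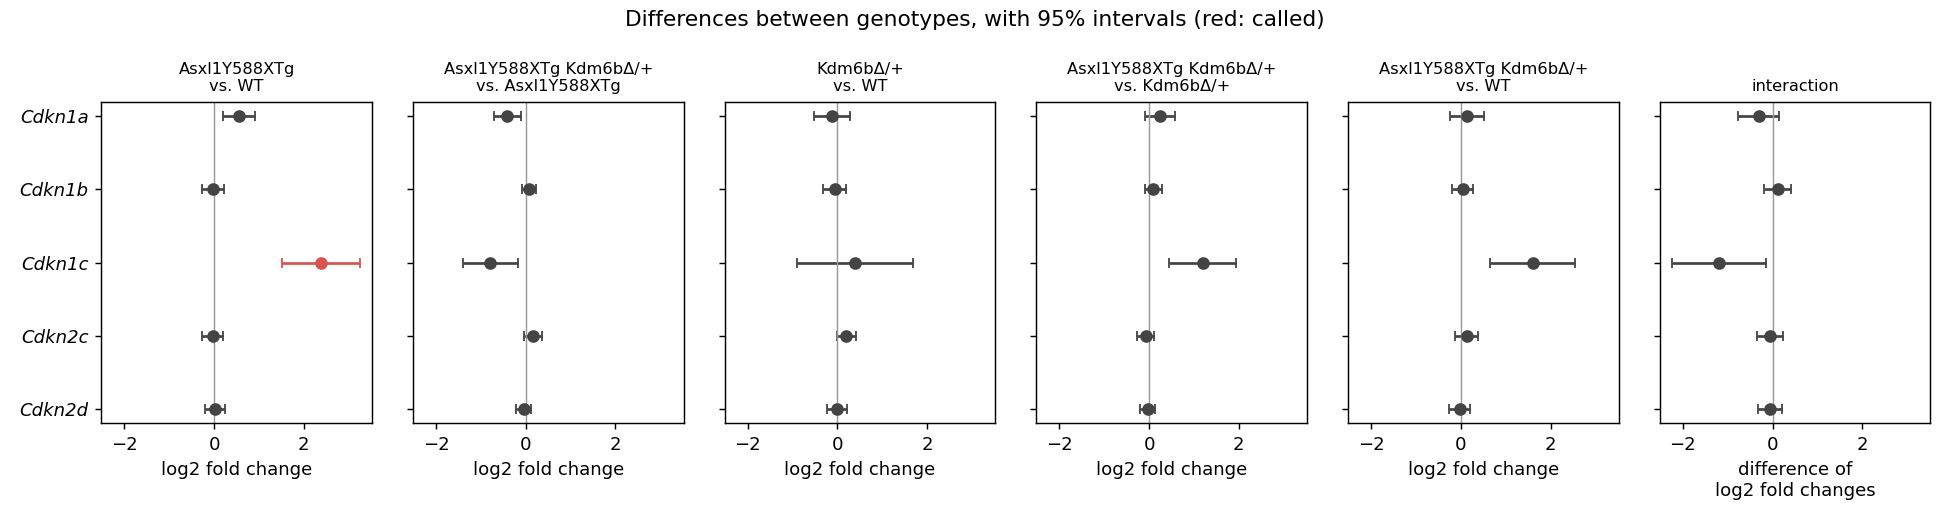
Log2 fold change of the 5 tested members (y axis) in the 5 pairwise comparisons and the interaction (panels), with 95% intervals from the quasi-likelihood fit, and called values in red. Cdkn1c against WT in Asxl1Y588XTg is the red point at 2.39, and the Cdkn1b and Cdkn2d points lie between -0.06 and 0.11 in every panel.

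Cdkn1a encodes p21, the p53 target that arrests cells after DNA damage (chr17:29090976-29100727, plus strand). Its counts were 208, 145, and 169 in WT, 142, 162, and 146 in Kdm6bΔ/+, 252, 282, and 237 in Asxl1Y588XTg, and 299, 166, and 186 in Asxl1Y588XTg Kdm6bΔ/+. After scaling they averaged 176 ± 16.4, 164 ± 13.7, 259 ± 22.4, and 193 ± 27.3 in the same order. The 3 Asxl1Y588XTg libraries, at 240 to 284, lay above the 9 others, which spanned 152 to 221 and overlapped between genotypes. Against WT the log2 difference was 0.55 (SE 0.16, 95% interval 0.19 to 0.91, unadjusted p = 0.00633), which did not pass the adjusted threshold (adjusted p = 0.176, edgeR). Groups apart in the higher direction were found for 10.5% of all genes in this comparison. With the deletion on the Asxl1Y588XTg background the difference was -0.41 (SE 0.14, 95% interval -0.71 to -0.10, unadjusted p = 0.0131, adjusted p = 0.180, edgeR). The groups did not overlap, as was found in the lower direction for 14.1% of all genes in this comparison. The exons of Cdkn1a overlap an antisense gene, AC167363.2, and the strand setting of the counting is not given in the sources used here.

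**Figure D4:**
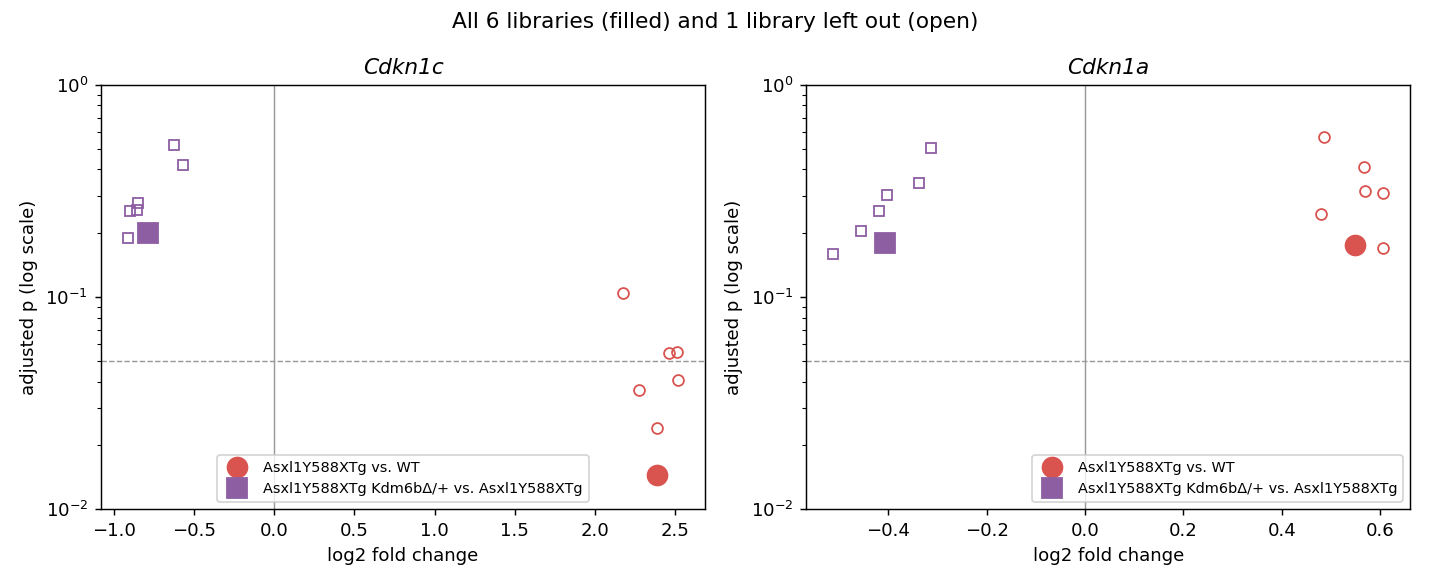
Log2 fold change (x axis) and adjusted p (y axis, log scale, dashed line at 0.05) of Cdkn1c and Cdkn1a with all 6 libraries (filled) and with each library left out (open). For Cdkn1c in Asxl1Y588XTg against WT 3 of the 6 open points lie above the line, and no Cdkn1a point lies below it.

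Cdkn1b encodes p27, which is controlled largely through degradation of the protein (chr6:134920401-134925513, plus strand). Its normalized counts were 1163, 1492, and 1485 in WT, 1171, 1441, and 1354 in Kdm6bΔ/+, 1438, 1367, and 1277 in Asxl1Y588XTg, and 1415, 1370, and 1449 in Asxl1Y588XTg Kdm6bΔ/+. The lowest WT and Kdm6bΔ/+ libraries lay below all others, and the 4 genotypes overlapped. The 5 log2 differences lay between -0.06 and 0.10, and for Asxl1Y588XTg against WT the 95% interval was -0.27 to 0.22.

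Among the INK4 genes, Cdkn2d (p19, chr9:21288410-21291407, minus strand) was the steadiest. Its normalized counts averaged 1346 ± 170 in WT, 1343 ± 19.0 in Kdm6bΔ/+, 1366 ± 56.0 in Asxl1Y588XTg, and 1310 ± 89.5 in Asxl1Y588XTg Kdm6bΔ/+, and its log2 differences lay between -0.04 and 0.02. Its SD within genotypes, 0.11 on the log2 CPM scale, was below that of Cdkn2c (0.13), Cdkn1b (0.14), Cdkn1a (0.15), and Cdkn1c (0.27). Cdkn2c (p18, chr4:109660876-109667189, minus strand), an inhibitor known to limit the self-renewal of HSCs, averaged 1394 ± 163 in WT, 1596 ± 26.6 in Kdm6bΔ/+, 1365 ± 83.4 in Asxl1Y588XTg, and 1512 ± 162 in Asxl1Y588XTg Kdm6bΔ/+. The 3 Kdm6bΔ/+ libraries (1568 to 1621) lay above the 3 WT libraries (1207 to 1500). This difference of 0.20 on the log2 scale (SE 0.10, 95% interval -0.02 to 0.41) did not pass the test (adjusted p = 0.99989, edgeR), and 4.13% of all genes lay apart in the higher direction in this comparison. At an unadjusted p under 0.05, the members past the threshold were Cdkn1c and Cdkn1a in Asxl1Y588XTg Kdm6bΔ/+ against Asxl1Y588XTg, where 15.4% of all genes were, and 0 in Kdm6bΔ/+ against WT, where 3.49% were. Cdkn1c was the 1 such member in Asxl1Y588XTg Kdm6bΔ/+ against Kdm6bΔ/+ (12.2% of all genes), Asxl1Y588XTg Kdm6bΔ/+ against WT (6.79%), and the interaction (6.87%).

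Cdkn2a (chr4:89274471-89294653, minus strand) and Cdkn2b (chr4:89306299-89311039, minus strand), neighbours on chromosome 4, were at the limit of what these libraries can show. Cdkn2a had 0, 0, and 3 counts in WT, 6, 1, and 2 in Kdm6bΔ/+, 23, 1, and 2 in Asxl1Y588XTg, and 1, 2, and 2 in Asxl1Y588XTg Kdm6bΔ/+. The 23 counts of Asxl1Y588XTg replicate 1 stood above the other 11 libraries, which held 0 to 6 each, and the genotypes overlapped. One count sums the p16 and Arf transcripts, which the matrix does not separate. Cdkn2b, the gene of the TGF-β-responsive inhibitor p15, had 0 counts in each WT and each Asxl1Y588XTg Kdm6bΔ/+ library, 3, 2, and 2 in Kdm6bΔ/+, and 1 in each Asxl1Y588XTg library. A count of 0 allows up to 3 counts, or 0.0906 to 0.134 FPKM in the 6 libraries without Cdkn2b, so that no fold change was given for it. In a fit without the filter on low counts, Cdkn2a was 2.91 higher on the log2 scale in Asxl1Y588XTg than in WT (adjusted p = 0.500, edgeR) and 2.40 lower in Asxl1Y588XTg Kdm6bΔ/+ than in Asxl1Y588XTg (log2 fold change -2.40, adjusted p = 0.0649, edgeR), values that rest on the 1 library with 23 counts, and neither gene was called in any comparison. The neighbouring Mtap, which encodes a methionine salvage enzyme, was not called in any comparison, with log2 differences of 0.10 for Asxl1Y588XTg against WT and -0.38 for Asxl1Y588XTg Kdm6bΔ/+ against Asxl1Y588XTg (adjusted p = 0.914 and 0.106, edgeR). Dmrta1, the other neighbour listed, did not pass the filter.

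Across the 12 libraries, the gene most like Cdkn1a in log2 CPM was Msi2, an RNA-binding regulator of HSCs (Pearson r = 0.98), followed by Mmrn1 (0.95) and Vwf (0.95), which encode proteins stored in platelets and megakaryocytes. Of these, Mmrn1 was called higher in Asxl1Y588XTg than in WT (log2 fold change 2.20, SE 0.28, adjusted p = 0.0145, edgeR), in 4 of 6 fits that left out 1 library. Msi2 (0.45, adjusted p = 0.0443, edgeR) was under the fold threshold, and Vwf (2.18, adjusted p = 0.145, edgeR) did not pass. They were picked for likeness to Cdkn1a over these same libraries and are no separate evidence about it. Cdkn1a and Cdkn1c were alike with r = 0.87. For Cdkn1c, which lay below the abundance set for this ranking and was added after its values were seen, the 3 genes were Med12l (0.97), Trpm6 (0.96), and BC067074 (0.96). Trpm6 and BC067074 averaged only 13.4 and 26.2 normalized counts over the 12 libraries. All 3 were called higher in Asxl1Y588XTg than in WT. The Trpm6 call held in 4 of 6 fits that left out 1 library (not without WT replicate 3 or Asxl1Y588XTg replicate 2), and those of Med12l and BC067074 in 6 of 6. Because the 3 were picked for likeness to Cdkn1c over these same libraries, their calls are no separate evidence about Cdkn1c. The genes most like Cdkn1b (Pcmtd2, 4930404N11Rik, and Gpr21, r = 0.90 to 0.92), Cdkn2c (Gm37090, Nck1, and Tmem38b, r = 0.89), and Cdkn2d (Ccdc88b and Myo1g, r = 0.91) were not called between Asxl1Y588XTg and WT. Of these, 4930404N11Rik, Gpr21, and Gm37090 averaged only 9.22, 10.2, and 10.5 normalized counts, so that their absence from the calls says little. These correlations are descriptions over libraries that include 4 genotypes.

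Most HSC marker genes rose in Asxl1Y588XTg against WT, where Cdkn1c was called, and fell in Asxl1Y588XTg Kdm6bΔ/+ against Asxl1Y588XTg, where neither Cdkn1c nor Cdkn1a passed the test. All 15 genes were above 0 in Asxl1Y588XTg against WT (median log2 fold change 1.77, over all genes -0.01), and DESeq2 called 15 higher. Those called higher by edgeR were 12, among them Hlf (1.26, SE 0.11, adjusted p = 0.00110, edgeR), Meis1 (1.26, SE 0.13, adjusted p = 0.00266), and Fgd5 (2.53, SE 0.27, adjusted p = 0.00266), all known for their expression in HSCs. With 1 library left out edgeR called 7 to 9 higher, and with the Y-linked term 13. The study named Meis1, Prdm16, Gata2, and Hoxb5 among the genes dysregulated in this same RNA-seq, so they are no separate evidence here. Hoxb5 averaged 27.2 ± 2.02 normalized counts in Asxl1Y588XTg, beside 1.43 ± 1.63 in WT and 8.75 ± 4.71 in Asxl1Y588XTg Kdm6bΔ/+. It thus passed the filter on low counts through the Asxl1Y588XTg libraries, which set its direction. In Asxl1Y588XTg Kdm6bΔ/+ against Asxl1Y588XTg 0 of the 15 were above 0 (median -1.30), and DESeq2 called 13 lower. Those called lower by edgeR were 10, among them Meis1 with -1.07 (SE 0.11, adjusted p = 0.00265, edgeR) and Gata2 with -1.02 (SE 0.12, adjusted p = 0.00686, edgeR). The Meis1 call held in 6 of 6 fits that left out 1 library and in the fit with the Y-linked term, whereas that of Gata2 was lost without Asxl1Y588XTg Kdm6bΔ/+ replicate 1 (adjusted p = 0.0573, edgeR) and with that term (0.0828). With 1 library left out edgeR called 5 to 10 of the list lower there, and 3 with the Y-linked term. Of the 15, 0 were called by edgeR in the other 3 pairwise comparisons, where DESeq2 called 4 higher in Asxl1Y588XTg Kdm6bΔ/+ than in Kdm6bΔ/+. The summed level of the 15 genes was 159 to 220 CPM in WT, 140 to 177 in Kdm6bΔ/+, 394 to 475 in Asxl1Y588XTg, and 163 to 233 in Asxl1Y588XTg Kdm6bΔ/+. The Asxl1Y588XTg Kdm6bΔ/+ and WT libraries overlapped in this sum. By gene, 13 of the 15 were above 0 in Asxl1Y588XTg Kdm6bΔ/+ against WT (median log2 difference 0.43). The smallest unadjusted p were those of Slamf1 (1.06, SE 0.33, adjusted p = 0.509, edgeR) and Fgd5 (0.89, SE 0.36, adjusted p = 0.705, edgeR). For both, and for Cdkn1c, the Asxl1Y588XTg Kdm6bΔ/+ libraries lay above all WT libraries, as for 6.68% of all genes. Mean normalized counts of Gata2 (769 ± 135 against 954 ± 188) and Pdzk1ip1 (114 ± 10.8 against 123 ± 50.8) were below those of WT.

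Markers of 2 other cell types, megakaryocyte and erythroid, held edgeR calls, all in comparisons with Asxl1Y588XTg Kdm6bΔ/+. The summed level of 6 megakaryocyte markers was 83.3 to 154 CPM in WT, 88.4 to 108 in Kdm6bΔ/+, 255 to 685 in Asxl1Y588XTg, and 168 to 255 in Asxl1Y588XTg Kdm6bΔ/+. In Asxl1Y588XTg against WT all 6 were above 0 (median log2 difference 1.30), with 0 of 6 called by edgeR and 1 by DESeq2. In Asxl1Y588XTg Kdm6bΔ/+ against WT all 6 were above 0 (median log2 difference 0.84) and edgeR called 1 higher, Ppbp of platelet granules (2.49, SE 0.36, adjusted p = 0.0241, edgeR), where DESeq2 also called 1. In Asxl1Y588XTg Kdm6bΔ/+ against Kdm6bΔ/+ all 6 were also above 0 (median 1.08), and edgeR called 1, the integrin gene Itga2b (0.68, SE 0.10, adjusted p = 0.0184, edgeR), and DESeq2 4. Each of these edgeR calls was lost without replicate 1 or 3 of either genotype compared, 4 of 6 fits that left out 1 library (adjusted p up to 0.141 for Ppbp and 0.104 for Itga2b), and with the Y-linked term (adjusted p = 0.980 and 0.679, edgeR). Of 8 erythroid markers, edgeR called 2 lower in Asxl1Y588XTg Kdm6bΔ/+ against WT (median -0.93) where DESeq2 called 3. The 2 were Alas2 of heme synthesis (log2 fold change -1.49, SE 0.20, adjusted p = 0.0174, edgeR) and the globin gene Hbb-bt (-1.11, SE 0.13, adjusted p = 0.00763, edgeR), whose reads may be shared with its close copy Hbb-bs. Both calls were lost without WT replicate 3 or Asxl1Y588XTg Kdm6bΔ/+ replicate 3 (adjusted p = 0.0632 to 0.136, edgeR), and with the Y-linked term, which left differences of -0.37 and 0.058. The summed level of the erythroid markers was 411 to 595 CPM in WT, 246 to 540 in Kdm6bΔ/+, 307 to 712 in Asxl1Y588XTg, and 262 to 326 in Asxl1Y588XTg Kdm6bΔ/+. In Kdm6bΔ/+ against WT 0 of 8 were above 0 (median -0.57), with 0 called by edgeR and 1 lower by DESeq2. In Asxl1Y588XTg against WT 0 of 8 were above 0 (median -0.15). Of 7 endothelial and stromal markers, 6 were above 0 in Asxl1Y588XTg against WT (median 0.93) and 7 in Asxl1Y588XTg Kdm6bΔ/+ against WT (0.87), with 0 called by edgeR. In these bulk samples fewer cells of a type and less RNA per cell cannot be told apart, and the part of any of these cell types in the Cdkn1c and Cdkn1a values was not tested.

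**Figure D5:**
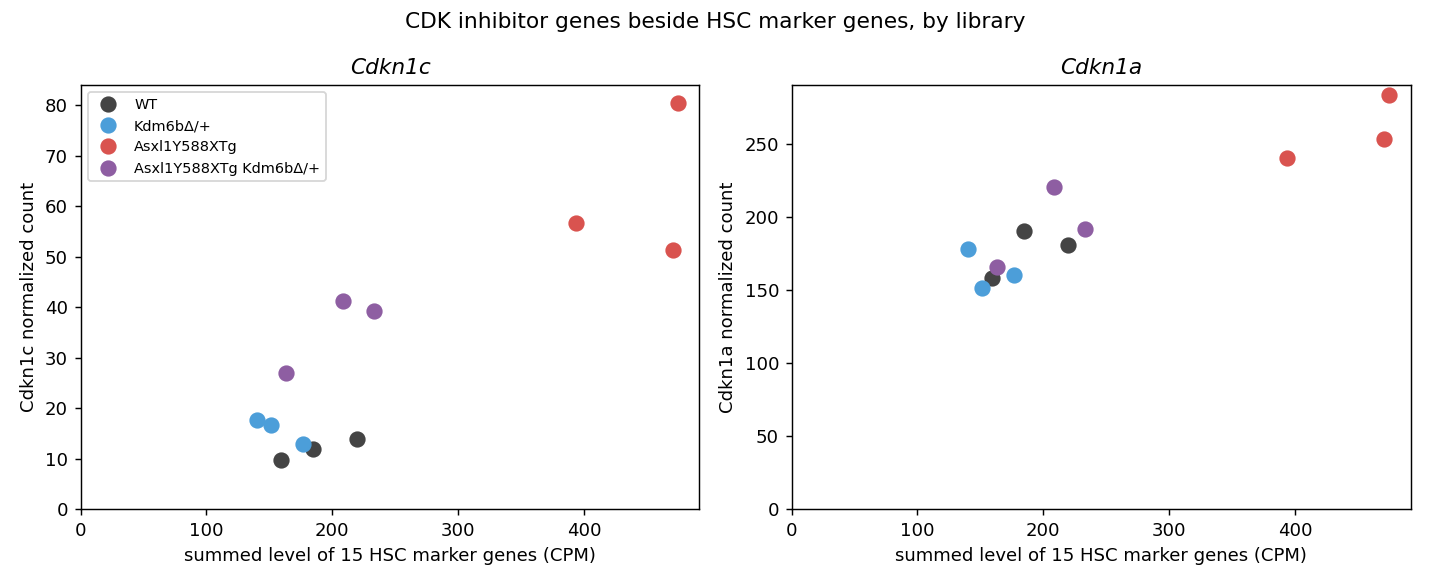
Normalized count of Cdkn1c (left) and Cdkn1a (right) against the summed level of 15 HSC marker genes in CPM, 1 point per library, coloured by genotype. The Asxl1Y588XTg libraries lie apart at 394 to 475 CPM, and the Asxl1Y588XTg Kdm6bΔ/+ libraries lie above the WT libraries for Cdkn1c and overlap them in the summed HSC marker level.

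Few genes of the kinases and cyclins that the inhibitors act on were called. In Asxl1Y588XTg against WT 2 of the 12 listed were above 0 (median log2 difference -0.09), and in Asxl1Y588XTg Kdm6bΔ/+ against Asxl1Y588XTg 9 were (0.09). Above 0 were 9 in Kdm6bΔ/+ against WT (0.02), 2 in Asxl1Y588XTg Kdm6bΔ/+ against Kdm6bΔ/+ (-0.07), and 3 in Asxl1Y588XTg Kdm6bΔ/+ against WT (-0.04). Of 12 CDK and cyclin genes, 1 was called, Ccnd1, the gene of cyclin D1, which averaged 180 ± 36.2 normalized counts in WT, 158 ± 38.1 in Kdm6bΔ/+, 367 ± 41.4 in Asxl1Y588XTg, and 237 ± 59.2 in Asxl1Y588XTg Kdm6bΔ/+. It rose by 1.03 on the log2 scale in Asxl1Y588XTg against WT (SE 0.18, adjusted p = 0.0213, edgeR), a call that was lost without Asxl1Y588XTg replicate 1 (adjusted p = 0.101), 2 (0.0768), or 3 (0.0548). The difference of -0.61 in Asxl1Y588XTg Kdm6bΔ/+ against Asxl1Y588XTg did not pass the test (adjusted p = 0.141, edgeR), where DESeq2 called 1 gene of the list lower. Of 13 RB and E2F genes edgeR and DESeq2 called 0 in every comparison, the smallest unadjusted p in Asxl1Y588XTg against WT being that of the RB gene Rb1 (log2 difference -0.21, adjusted p = 0.555, edgeR). Above 0 were 4 of the 13 in Asxl1Y588XTg against WT (median -0.08) and 9 in Asxl1Y588XTg Kdm6bΔ/+ against Asxl1Y588XTg (0.05). Of 21 genes of S and G2/M phase, 0 were called by edgeR or DESeq2, and the median log2 fold change was -0.11 in Asxl1Y588XTg against WT, where 1 of 21 was above 0, and 0.04 in Asxl1Y588XTg Kdm6bΔ/+ against Asxl1Y588XTg, where 16 were. It was -0.14 in Asxl1Y588XTg Kdm6bΔ/+ against Kdm6bΔ/+ (1 above 0), 0.06 in Kdm6bΔ/+ against WT (18), and -0.07 in Asxl1Y588XTg Kdm6bΔ/+ against WT (4). The mitotic kinase gene Plk1 had the smallest unadjusted p in Asxl1Y588XTg against WT, with a log2 difference of -0.21 (adjusted p = 0.412, edgeR).

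The regulators of the family were read from 5 further lists. Among 20 genes of p53 and its targets, the median log2 fold change in Asxl1Y588XTg against WT was 0.20 with 14 above 0, and edgeR and DESeq2 called 0. In Asxl1Y588XTg Kdm6bΔ/+ against Asxl1Y588XTg 5 of the 20 were above 0, and 1 was called lower, Plk2, which encodes a kinase induced by p53 (log2 fold change -0.76, SE 0.17, adjusted p = 0.0474, edgeR). Without the transgene, in Kdm6bΔ/+ against WT, Plk2 differed by -0.78 (SE 0.24, unadjusted p = 0.00703, adjusted p = 0.99989, edgeR). The Plk2 call was kept in 1 of 6 fits that left out 1 library, that without Asxl1Y588XTg replicate 2 (adjusted p of the 6 fits 0.0124 to 0.208), and was lost with a term for Y-linked transcripts (0.622). Among 14 genes of TGF-β signalling and of MYC and MIZ1, which act on Cdkn2b and Cdkn1a, Mycn alone was called by edgeR, 1.99 higher on the log2 scale in Asxl1Y588XTg than in WT (SE 0.26, adjusted p = 0.00545) and changed by -1.47 in Asxl1Y588XTg Kdm6bΔ/+ against Asxl1Y588XTg (SE 0.19, adjusted p = 0.00874). The first Mycn call held in 6 of 6 fits that left out 1 library, and the latter was lost without Asxl1Y588XTg Kdm6bΔ/+ replicate 1 (adjusted p = 0.0675) and with the Y-linked term (0.0779). Mycn averaged 97.6 ± 38.8 normalized counts in WT, 68.0 ± 3.68 in Kdm6bΔ/+, 388 ± 39.1 in Asxl1Y588XTg, and 139 ± 39.2 in Asxl1Y588XTg Kdm6bΔ/+. Among 22 Polycomb genes and regulators of the Cdkn2a and Cdkn2b locus, 1 was called by edgeR, the X-linked H3K27 demethylase gene Kdm6a, which was lower in Asxl1Y588XTg Kdm6bΔ/+ than in WT by a log2 fold change of -0.72 (SE 0.08, adjusted p = 0.00269), a pair of genotypes of which 3 of 3 and 0 of 3 libraries held Y-linked transcripts. With a term for Y-linked transcripts the Kdm6a difference was 0.0151 (adjusted p = 0.995, edgeR). The Polycomb gene Pcgf2 was higher by 1.16 in Asxl1Y588XTg than in WT without passing edgeR's threshold (SE 0.28, adjusted p = 0.0866), and DESeq2 called 1 gene of this list there. The Polycomb gene Cbx6 differed by 0.43 there (SE 0.12, adjusted p = 0.145, edgeR). In Asxl1Y588XTg Kdm6bΔ/+ against Asxl1Y588XTg it differed by -0.42 (SE 0.08, adjusted p = 0.0273, edgeR), which is under the fold threshold of 1.5 and so was not called. None of 11 genes of p27 turnover and FOXO was called by edgeR or DESeq2, the smallest unadjusted p in Asxl1Y588XTg against WT being that of Foxo1 (log2 difference -0.44, adjusted p = 0.772, edgeR). Of 10 genes of the imprinted domain that holds Cdkn1c, 9 were tested and 0 were called by edgeR or DESeq2. Its imprinted gene Phlda2, which limits placental growth, differed by 1.93 in Asxl1Y588XTg against WT (SE 0.88, unadjusted p = 0.0531) and by -1.18 in Asxl1Y588XTg Kdm6bΔ/+ against Asxl1Y588XTg (SE 0.37, unadjusted p = 0.00858, adjusted p = 0.147, edgeR), and Kcnq1ot1, the long noncoding RNA that silences the domain on the paternal allele, by -0.22 and 0.32 (SE 0.14 and 0.13).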

How the data were processed

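LK cells of individual mice were profiled by RNA-seq. Per the sample labels and the study's methods, the authors trimmed the reads with Trimmomatic, aligned them with STAR to mm10, and counted them with HTSeq, and they deposited raw counts per gene. The annotation and strand setting of the counting are not given in the sources used here. Library kit and sequencer differ between the labels and the study's methods. Positions and exon lengths were taken from GENCODE vM21 (mm10), and start windows from RefSeq.

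Counts were analysed in R 4.3.3 with edgeR 4.0.16 (filterByExpr over the 4 genotypes, TMM, robust quasi-likelihood F test on the 6 libraries compared, or on all 12 for the interaction). Standard errors and intervals were derived from the F statistic. The interaction was called on the adjusted p alone. DESeq2 1.42.0 was an alternative, as were 1 fit of 4 genotypes, RLE scaling, no filter, a replicate block, a term for Y-linked transcripts, and leaving out each library. The Y-linked term was always added to the fit of 4 genotypes on all 12 libraries, so a call lost with it can also reflect that change of fit. Without the term, that fit called 14 genes in Asxl1Y588XTg Kdm6bΔ/+ against WT, beside 34 in the main fit. Replicates are separate mice and differed by more than sampling noise (chi-square per gene 7.40 to 30.8). Scripts were tested on simulated data. Floors of 3 counts cover counting error only. The depth was 14451522 to 23482563 counts per library.

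Named genes were the members, Kdm6b, listed genes called in a pairwise comparison (up to 3 per list), up to 2 with the smallest unadjusted p for lists with 0 called, and the 3 genes most like each member that averaged 50 or more normalized counts, of which 1 is not reported here. Asxl1, marker genes, and the genes like Cdkn1c were added outside that rule. The members and lists were chosen with earlier results of these data known. Marker lists for B cells (46.3 to 188 CPM summed per library), T and NK cells (180 to 270), monocytes and macrophages (4652 to 6890), erythroid cells (246 to 712), mast cells and basophils (150 to 229), and endothelial and stromal cells (96.4 to 219) were also summed.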

Additional observations from a re-analysis of the deposited data

How the results depend on the processing

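The call of Cdkn1c in Asxl1Y588XTg against WT held under DESeq2, 1 fit of 4 genotypes, RLE scaling, no filter, and a term for Y-linked transcripts (log2 fold change 2.20 to 2.40), and the count of members called was 1 in each. Replicate numbers did not pair the mice: deviations of same-numbered libraries correlated with a median r of -0.04 over 18 pairs (-0.12 to 0.08), beside 0.01 over 36 other pairs. With the replicate number as a block, 0 members were called there (Cdkn1c 2.36, adjusted p = 0.0818, edgeR), and the cause was not tested. Leaving out 1 library gave 0 to 1 members called there. In the other 4 pairwise comparisons and the interaction 0 members were called under every setting run, so the block changed no other member's call. Changes of sign were limited to small values of Cdkn1b, Cdkn2c, and Cdkn2d. Cdkn1b in Asxl1Y588XTg against WT was 0.011 with the Y-linked term, and Cdkn2d in Kdm6bΔ/+ against WT was 0.0013 under DESeq2, 0.0012 under RLE scaling, 0.0037 with the replicate block, and 0.0117 with the Y-linked term. With 1 library left out, Asxl1Y588XTg against WT ranged from -0.13 to 0.039 for Cdkn1b, -0.13 to 0.024 for Cdkn2c, and -0.039 to 0.13 for Cdkn2d, and Asxl1Y588XTg Kdm6bΔ/+ against Asxl1Y588XTg from -0.090 to 0.014 for Cdkn2d. Kdm6bΔ/+ against WT ranged from -0.17 to 0.022 for Cdkn1b and -0.052 to 0.11 for Cdkn2d, and Asxl1Y588XTg Kdm6bΔ/+ against Kdm6bΔ/+ from -0.13 to 0.012 for Cdkn2c and -0.072 to 0.022 for Cdkn2d. Asxl1Y588XTg Kdm6bΔ/+ against WT ranged from -0.064 to 0.11 for Cdkn1b and -0.086 to 0.085 for Cdkn2d, and the interaction of Cdkn2c from -0.11 to 0.045. In fits chosen after seeing the data, Kdm6a in Asxl1Y588XTg Kdm6bΔ/+ against WT was 0.0151 with the Y-linked term, and Hbb-bt there was 0.058. With the longest transcript as length, Cdkn1a stood at 5.42 FPKM and Cdkn2d at 53.6 FPKM. The number of all genes called in Asxl1Y588XTg against WT was 255, with 473 under DESeq2, 446 in 1 fit of 4 genotypes, 101 under the block, 613 without the filter, 136 without WT replicate 3, 117, 110, and 163 without Asxl1Y588XTg replicates 1, 2, and 3, and 246 to 251 without either other WT library. Depth limits Cdkn2a and Cdkn2b, which no setting called.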
